A study of Mus musculus with 48 samples.

Results

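Somatostatin (Sst), the closely related peptide cortistatin (Cort) and 4 of their receptors (Sstr1, Sstr2, Sstr3 and Sstr4) were followed in mouse cerebral cortex. The 6 genes were taken by symbol from a table of 48795 genes, and all 6 were among the 19547 genes with enough counts to be tested. The set was selected on gene names with the Q140 fold changes of the same libraries already known, in which Sstr1 had passed the threshold, an edgeR adjusted p under 0.05 over all tested genes. The Q140 differences of all 6 are therefore given as a description, without p-values. RNA had been sequenced from the cortex of 48 C57BL/6 mice aged 12 months, and each genotype had 8 libraries from 4 female and 4 male mice. The 6 groups were Q140 Msh3-/-, Q140 Msh3+/-, Q140, Msh3-/-, Msh3+/- and wild type (WT). Q140 mice carry 1 Htt allele, the mouse Huntington disease gene, with an expanded CAG repeat knocked into the gene itself, and are labelled heterozygous in all 3 carrier groups. No label names a Cre driver or a promoter that would limit either allele to a cell type. Msh3 encodes a DNA mismatch repair protein that drives expansion of CAG repeats in somatic cells, and the cross asks how the cortical transcriptome of Q140 mice varies with Msh3 genotype.

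Somatostatin is released in the cortex by a class of GABAergic interneurons that inhibit the dendrites of neighbouring cells, and it is cut from a larger precursor inside secretory granules. Cortistatin comes from a separate gene and binds the same receptors. The receptors couple to inhibitory Gi/o proteins, which lower cyclic AMP, open potassium channels and close calcium channels. Transcription of Sst is a classic example of control through the cyclic AMP response element (CRE), the site where CREB binds. In the striatum of patients with Huntington disease, somatostatin interneurons are known for being relatively spared.

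The kinship of the ligands is visible in the last 14 codons of their coding sequences, which encode the short peptides somatostatin-14 and cortistatin-14. They are shown because the peptides they encode bind the same receptors. Both stretches were read from GRCm38 with GENCODE M21 transcripts, and capitals mark bases that are identical when the Cort stretch is moved by 1 codon.
Sst, chr16:23889732-23889773, minus strand: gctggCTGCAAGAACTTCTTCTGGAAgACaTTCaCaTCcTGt
Cort, chr4:149125267-149125308, minus strand: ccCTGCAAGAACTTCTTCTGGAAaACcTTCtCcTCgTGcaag
Of 39 aligned bases 31 were identical (79.5%), and 7 of 13 aligned codons were the same.

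The full CRE palindrome TGACGTCA, which reads the same on both strands, was searched in the 300 bases around each RefSeq transcription start (250 before and 50 after, assembly GRCm38.p6). Windows were found for 5 of the 6 genes, 6 windows in all, and Sstr1 was the gene without one. The windows of Sst and Sstr2 held the palindrome, 40 and 50 bases before the RefSeq start, and both are shown with the palindrome in capitals.
Sst, chr16:23890874-23890903, minus strand: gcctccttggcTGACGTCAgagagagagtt
Sstr2, chr11:113619258-113619287, plus strand: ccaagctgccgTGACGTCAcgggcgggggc
The palindrome was present in 588 of 32851 windows of all genes (1.79%). Its shorter core TGACG, which lies inside the palindrome and was searched on both strands, occurred in 4 of the 6 windows and in 20.8% of all windows. These matches describe the letters of the windows only.

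In GENCODE M21 on GRCm38, Sst lies on chromosome 16 (23889573 to 23890958) and Cort on chromosome 4 (149125034 to 149126763), each with 2 exons. The Sst stretch with the CRE palindrome (23890874 to 23890903) lies inside this GENCODE gene, so RefSeq and GENCODE place the Sst start differently. Sstr1 is on chromosome 12 (58211772 to 58214444), Sstr3 on chromosome 15 (78537008 to 78544685) and the single-exon gene Sstr4 on chromosome 2 (148395344 to 148396767). Sstr2 on chromosome 11 (113619342 to 113626028) lies inside Slc39a11, which is read from the opposite strand. The strand setting of the counting is not given in the sources used here, so it is not known whether reads of Slc39a11 were kept apart from those of Sstr2, and its values carry that limit throughout. No other of the 6 genes overlapped another gene.

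The libraries held 37.7 to 68.3 M counts (M, mega), around a median of 48.6 M. The vesicular glutamate transporter gene Slc17a7 had 1171 to 1504 CPM (counts per M counts of the normalized library total) and the GABA-synthesis gene Gad1 345 to 482 CPM, whereas the striatal gene Drd1 had 4.30 to 7.90 CPM. These levels matter because 1 protocol label speaks of striatum at 6 months, while the tissue and age labels all give cortex at 12 months. Msh3 itself had 83.2 to 110 CPM in the 16 libraries labelled Msh3-/-, 54.4 to 64.7 CPM in the 16 labelled Msh3+/- and 20.5 to 23.7 CPM in the 16 with neither label. The Msh3 groups did not overlap, but the counts were higher, not lower, where the labels give a mutated gene, and counts over a whole gene do not show which exons they come from. Msh3 genotypes are therefore those of the labels throughout. Htt had 224 to 275 CPM over all libraries. Libraries WT M2 and Msh3+/- M1 stood apart by pituitary transcripts, with summed CPM of 45.4 and 14.1 over 7 pituitary genes against a median of 0.794. Library Msh3+/- M2 stood apart by choroid plexus transcripts, with a summed 46.5 CPM over the choroid plexus genes other than Ttr and Enpp2 against a median of 4.16, by a rule added after seeing the data.

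Sst was by far the most abundant of the 6 mRNAs, and cortistatin the scarcest. On a scale per length of transcript, as FPKM (fragments per kilobase of transcript and per M fragments), Sst had 189 ± 12.5 (SD, n = 48 libraries here and for the other levels). It ranked 131st among all genes of the table. The receptors lay close together, with 7.54 ± 0.542 FPKM for Sstr3, 7.02 ± 1.12 for Sstr2, 6.58 ± 0.823 for Sstr1 and 6.35 ± 0.768 for Sstr4. Cort had 3.62 ± 1.04 FPKM. Sst exceeded Sstr3 in 48 of 48 libraries, and Sstr4 exceeded Cort in 45.

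**Figure D1:**
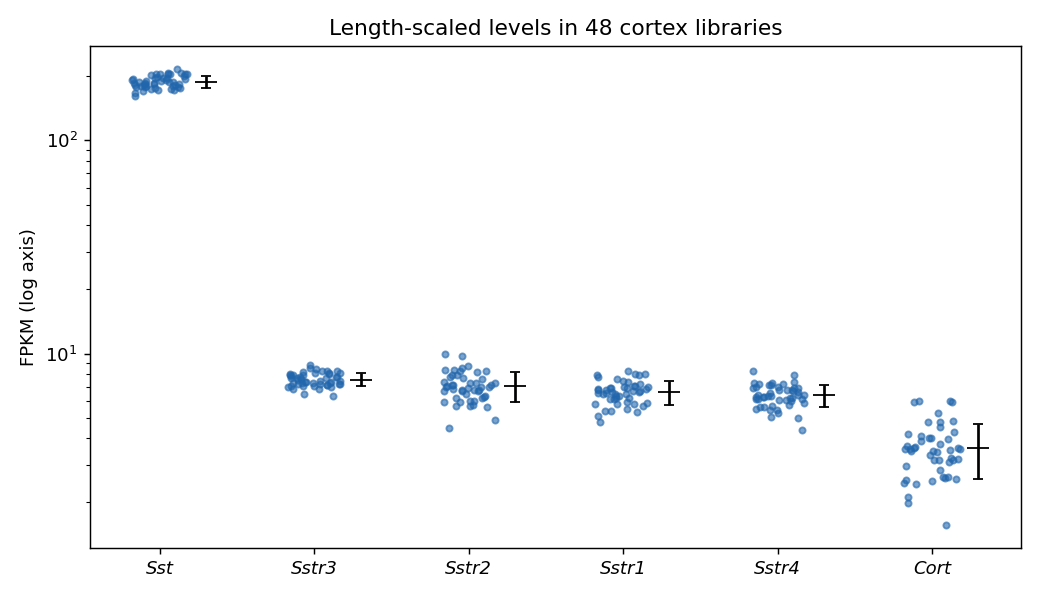
Length-scaled level (FPKM, log axis) of each gene in each of the 48 libraries, with bars for the mean and SD. Sst lies at 189 ± 12.5 FPKM, the 4 receptors between 6.35 and 7.54 FPKM on average, and Cort below them at 3.62 ± 1.04.

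Receptors next to each other in this order changed places between libraries. Sstr3 exceeded Sstr2 in 32 libraries, Sstr2 exceeded Sstr1 in 31, and Sstr1 exceeded Sstr4 in 28 of 48. The differences between neighbouring means were within the SDs between libraries, and the order of the means was not tested. The fifth receptor gene, Sstr5, known mainly from the pituitary, had 0 to 20 counts per library (mean 5.92) and was not tested.

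Sst was nearly level with and without Q140. It was 106 to 129 CPM in the 8 Q140 libraries (median 116), against 109 to 126 CPM in WT (median 112). On the Msh3+/- background it was 101 to 124 CPM in Q140 Msh3+/- (median 112), against 102 to 123 CPM in Msh3+/- (median 110). In Q140 Msh3-/- it was 95.1 to 125 CPM (median 115), against 97.3 to 125 CPM in Msh3-/- (median 109). The groups overlapped over nearly their whole range on each background. Over all 24 Q140 carriers, Sst averaged 114 ± 8.29 CPM, against 112 ± 7.31 CPM in the 24 non-carriers. The fitted difference, averaged over the 3 Msh3 genotypes, was 2.17% (95% interval -1.71 to 6.2%). By sex, mean log2 Sst of carriers minus non-carriers was 0.074 in females and -0.012 in males, and whether the sexes differ in this was not tested. In bulk tissue, fewer cells of a type and less RNA per cell cannot be told apart, and this holds for every value here.

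Cort, the scarcer ligand, varied most from mouse to mouse. It had 1.65 to 3.27 CPM in Q140 (median 2.67), against 1.77 to 4.09 CPM in WT (median 2.48). It had 1.66 to 2.88 CPM in Q140 Msh3+/- (median 2.23), against 1.43 to 4.05 CPM in Msh3+/- (median 2.46), and 1.79 to 3.97 CPM in Q140 Msh3-/- (median 2.27), against 1.06 to 2.78 CPM in Msh3-/- (median 1.97). Carriers and non-carriers overlapped broadly, with a mean of 2.42 ± 0.588 CPM in carriers and 2.48 ± 0.836 CPM in non-carriers. The averaged log2 difference was -0.028 ± 0.11 (SE), and its 95% interval of -16.2 to 14.9% is the widest among the 6 genes. The differences on the 3 backgrounds had unlike signs, at -0.12 ± 0.19 on Msh3+/+, -0.23 ± 0.20 on Msh3+/- and 0.27 ± 0.20 on Msh3-/-. Single libraries moved each of them both ways. On Msh3+/+ the difference was -0.19 without WT M1 and 0.020 without WT F4. On Msh3+/- it was -0.33 without Msh3+/- F4 and -0.11 without Msh3+/- M2. On Msh3-/- it was 0.14 without Q140 Msh3-/- M2 and 0.34 without Msh3-/- M3.

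Sstr1 was the 1 gene of the 6 that passed the threshold for Q140 carriers against non-carriers, and it was higher. Its product is an inhibitory receptor known as an autoreceptor on somatostatin neurons in several brain regions. Sstr1 had 13.3 to 16.5 CPM in Q140 (median 14.6), against 11.1 to 14.1 CPM in WT (median 12.3). All 8 Q140 libraries were above the WT median and 5 were above the highest WT library. It had 11.4 to 16.8 CPM in Q140 Msh3+/- (median 15.1), against 11.1 to 14.4 CPM in Msh3+/- (median 12.2), where 7 of 8 carriers were above the Msh3+/- median. It had 12.8 to 16.2 CPM in Q140 Msh3-/- (median 13.5), against 9.79 to 14.8 CPM in Msh3-/- (median 12.7), and there all 8 carriers were above the Msh3-/- median but 1 was above its highest library. Over the 3 backgrounds, 23 of 24 carriers exceeded the median of the non-carriers and 9 exceeded the highest non-carrier, so the groups overlapped.

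**Figure D2:**
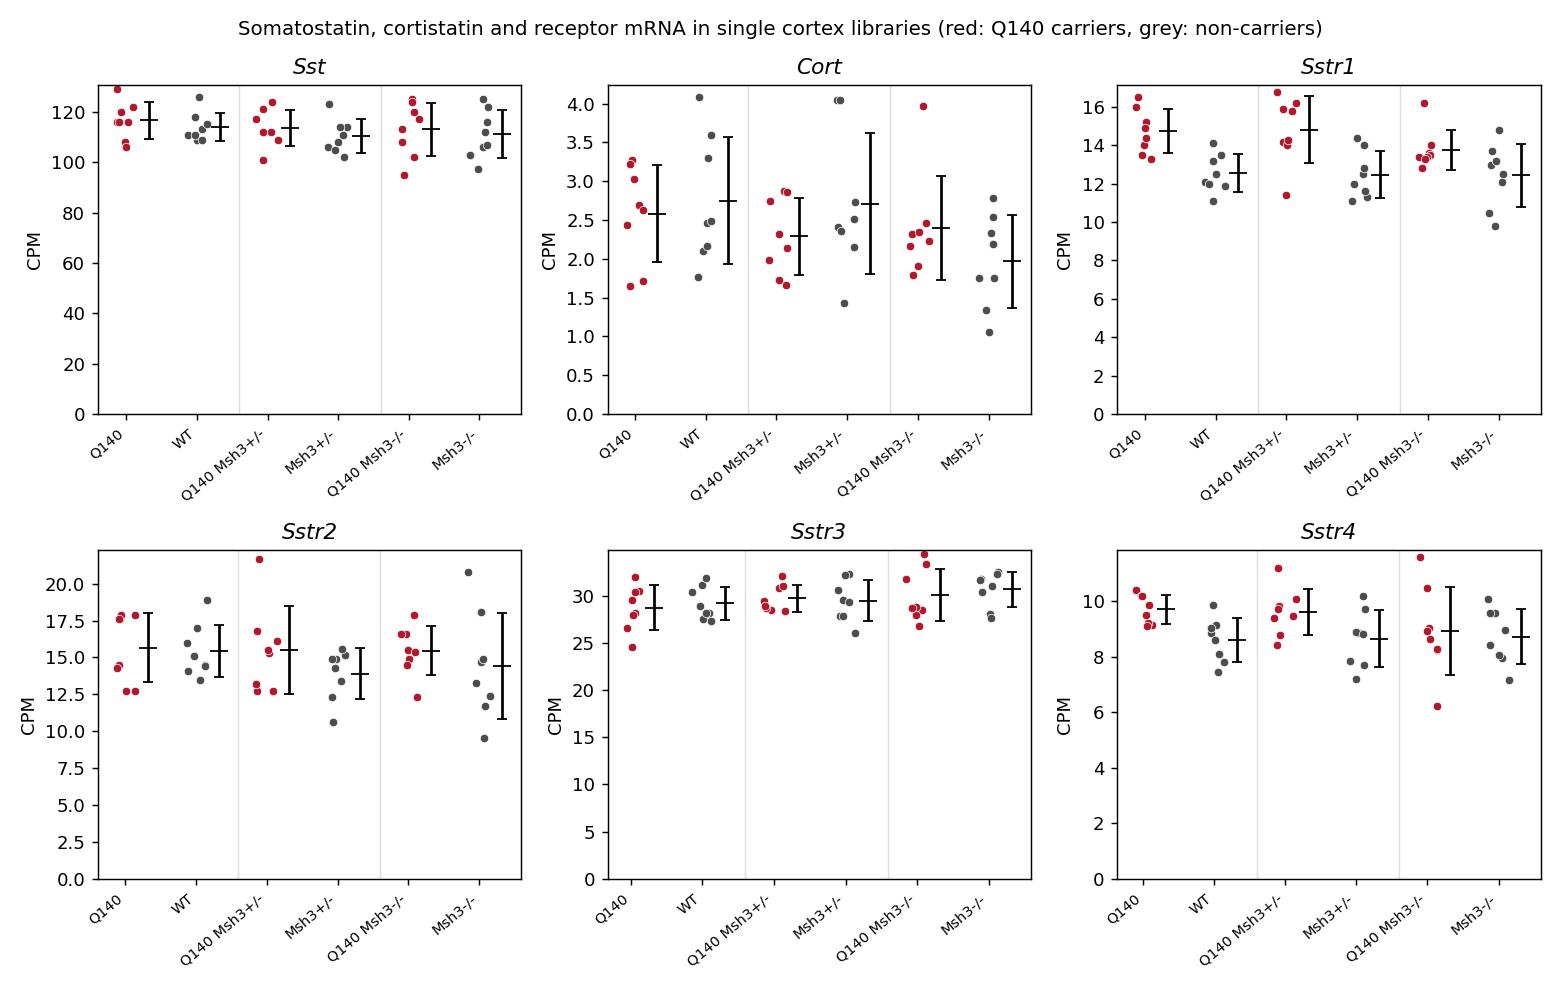
CPM of each gene in single libraries (linear axes from 0), with each Q140 group (red) beside its counterpart without Q140 (grey), and bars for the mean and SD of 8 libraries. The Sstr1 carriers sit at 11.4 to 16.8 CPM, against 9.79 to 14.8 CPM in non-carriers, while the Sst groups cover nearly the same range.

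Sstr1 averaged 14.45 ± 1.37 CPM in carriers and 12.5 ± 1.25 CPM in non-carriers, a log2 difference of 0.21 ± 0.040, or 15.4% (95% interval 9.17 to 22%). Of all 19547 genes, 1.47% passed the threshold in this comparison, 0.711% as higher, and nothing is read from the share of 1 in 6 since the genes were picked with this comparison known. By background the log2 difference was 0.22 ± 0.069 on Msh3+/+, 0.25 ± 0.070 on Msh3+/- and 0.15 ± 0.069 on Msh3-/-. None of the 6 genes passed on a single background, where 0.102% (Msh3+/+), 0.0512% (Msh3+/-) and 0.0205% (Msh3-/-) of all genes did.

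The Sstr1 difference had the same sign in every plate column and in both sexes. These are parts of the libraries in which Sstr1 was known to pass, so the shared sign is description and not separate support. The plate column was taken from the well address in the labels. Column 1 held 7 carriers and 1 non-carrier, and column 3 held 2 carriers and 6 non-carriers. Carriers had higher mean Sstr1 than non-carriers by 0.13, 0.22, 0.10, 0.25, 0.21 and 0.26 on the log2 scale in columns 1 to 6. The difference was 0.17 in males, with means of 14.1 CPM in carriers and 12.6 CPM in non-carriers. In females it was 0.25, with 14.8 CPM in carriers and 12.4 CPM in non-carriers.

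**Figure D3:**
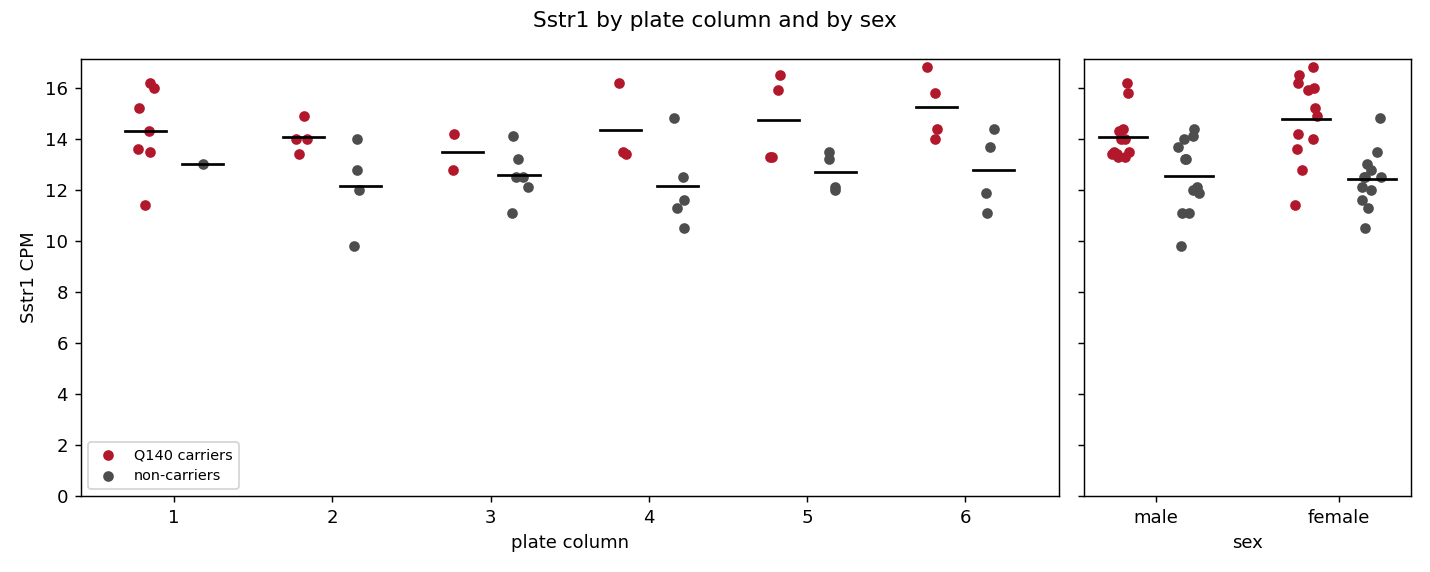
Sstr1 CPM of single libraries by plate column (left) and by sex (right), Q140 carriers in red and non-carriers in grey, with lines for group means. Carriers have the higher mean in all 6 columns, although column 1 holds a single non-carrier and column 3 holds 2 carriers.

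The difference was 0.23 without the pair of libraries that stood apart by pituitary transcripts and 0.22 without these and Msh3+/- M2, all of them non-carriers. All 8 tested choroid plexus genes (median -0.71) and all 7 endothelial genes (median -0.074) had log2 differences below 0 and none passed. On single backgrounds the choroid plexus median was -0.18 on Msh3+/+, -1.7 on Msh3+/- and -0.082 on Msh3-/-. Library Msh3+/- M2 belongs to the Msh3+/- background, and on Msh3-/- 2 of the 8 genes were above 0. Summed choroid plexus levels were 209 to 245 CPM in carriers (median 230) and 206 to 1129 CPM in non-carriers (median 238). Summed endothelial levels were 152 to 236 CPM in carriers against 192 to 251 CPM in non-carriers. In the same comparison all 7 astrocyte genes of the list had log2 differences below 0 and 4 passed. Of all 19547 genes, 1.47% passed and 9671 had log2 differences above 0. The log2 difference was -0.18 ± 0.024 for the glutamate transporter gene Slc1a2, -0.17 ± 0.023 for the glutamine synthetase gene Glul and -0.14 ± 0.027 for the connexin gene Gja1. The summed level of the 7 genes was 5808 to 6904 CPM in carriers against 6207 to 7827 CPM in non-carriers. Beyond genotype and sex, the Sstr1 level correlated with these 7 genes at a median r of -0.27 over the 48 libraries (range -0.59 to -0.041). The part of astrocyte and endothelial genes in the Sstr1 difference was not tested.

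The other 3 receptors did not pass. Sstr4, a receptor of cortical and hippocampal neurons, had 9.12 to 10.4 CPM in Q140 (median 9.70), against 7.45 to 9.86 CPM in WT (median 8.74). All 8 Q140 libraries were above the WT median. It had 8.44 to 11.2 CPM in Q140 Msh3+/- (median 9.60), against 7.19 to 10.2 CPM in Msh3+/- (median 8.83), and 6 of 8 carriers were above that median. In Q140 Msh3-/- it had 6.24 to 11.6 CPM (median 8.79), against 7.17 to 10.1 CPM in Msh3-/- (median 8.69), with nearly equal medians. The averaged log2 difference of Sstr4 was 0.12 ± 0.047, or 8.61% (95% interval 1.81 to 15.9%), and by background it was 0.17 ± 0.080 on Msh3+/+, 0.15 ± 0.081 on Msh3+/- and 0.032 ± 0.081 on Msh3-/-. The value on Msh3-/- was -0.041 without Q140 Msh3-/- M1 and 0.095 without Q140 Msh3-/- M4. Within plate columns 1 and 5 the Sstr4 difference was -0.051 and -0.059, and in the others it was 0.16 to 0.23.

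Sstr2, the main target of the synthetic somatostatin analogues used as drugs, had 12.7 to 17.9 CPM in Q140 (median 16.1), against 13.5 to 18.9 CPM in WT (median 14.8). It had 12.7 to 21.7 CPM in Q140 Msh3+/- (median 15.4), against 10.6 to 15.6 CPM in Msh3+/- (median 14.6), and 12.3 to 17.9 CPM in Q140 Msh3-/- (median 15.4), against 9.57 to 20.8 CPM in Msh3-/- (median 14.01). These ranges overlapped on every background. Sstr2 averaged 15.5 ± 2.28 CPM in carriers and 14.6 ± 2.50 CPM in non-carriers, a difference of 6.84% (95% interval -2.63 to 17.2%). On the log2 scale this was 0.095 ± 0.066, and 0.044 ± 0.068 with plate column in the model. Within plate columns 1 and 3 the Sstr2 difference was -0.35 and -0.016, and in the others it was 0.059 to 0.16.

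Sstr3, a receptor that mouse neurons place in the primary cilium, was with Sst among the steadiest. It averaged 28.7 ± 2.39 CPM in Q140 and 29.2 ± 1.72 CPM in WT. The means were 29.7 ± 1.38 CPM in Q140 Msh3+/- and 29.5 ± 2.17 CPM in Msh3+/-, and 30.04 ± 2.76 CPM in Q140 Msh3-/- and 30.7 ± 1.84 CPM in Msh3-/- (SD, n = 8 each). Carriers covered 24.6 to 34.4 CPM and non-carriers 26.05 to 32.5 CPM, so the ranges were nested. The averaged difference of -1.02% had a 95% interval from -4.95 to 3.07%. By sex, mean log2 Sstr3 of carriers minus non-carriers was 0.056 in females and -0.086 in males, which was not tested.

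**Figure D4:**
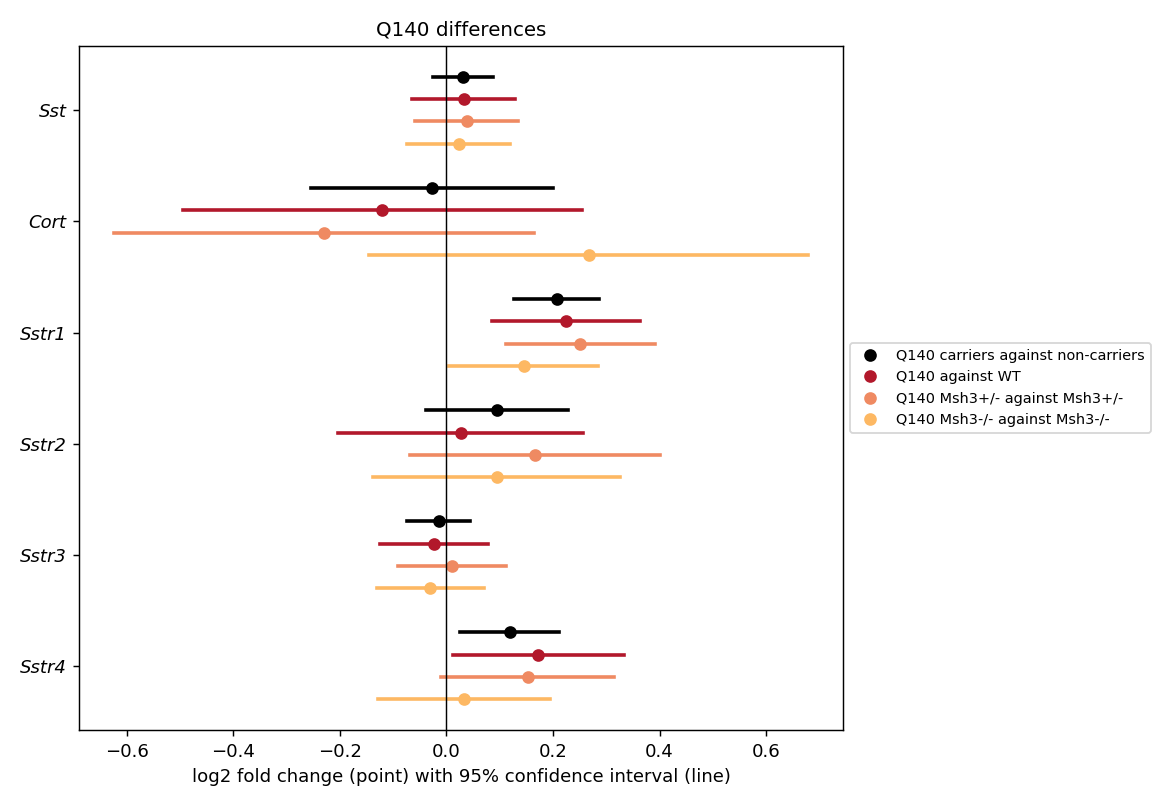
Log2 fold change of each gene for Q140 carriers against non-carriers over all 3 Msh3 genotypes (black) and on each Msh3 background (coloured), with 95% confidence intervals as lines. Sstr1 lies above 0 in all 4 comparisons (0.15 to 0.25), Sstr3 and Sst lie close to 0, and the Cort intervals are the widest.

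The genes of the pathway around the receptors were counted with Q140 beside the 1.47% of all genes that passed, and in lists this short nothing is read from counts of 0 to 2. None of 10 genes for ligand maturation passed, and their median log2 difference was -0.0029 against -0.00085 over all genes. Of 27 genes for Gi/o signalling, 2 passed (median 0.015). Gng3, which encodes a neuronal G protein gamma subunit, had a log2 difference of 0.11 ± 0.028, with 189 ± 13.4 CPM in carriers and 175 ± 13.1 CPM in non-carriers. Rgs7, which encodes an accelerator of GTP hydrolysis on Gi/o proteins, had a log2 difference of -0.079 ± 0.021, with 103 ± 5.36 CPM in carriers and 109 ± 5.11 CPM in non-carriers. None of 11 genes of the CREB pathway passed (median 0.010), and none of 8 tested genes for other neuropeptide receptors did (median -0.0035).

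Markers of the cells that make somatostatin were counted beside the same 1.47%. Of 20 genes of Sst interneurons 0 passed (median 0.011), and 11 had log2 differences above 0, and their summed level was 776 to 875 CPM in carriers against 783 to 853 CPM in non-carriers. Npy, a neuropeptide gene of a subset of these cells, had 64.3 ± 6.36 CPM in carriers and 68.0 ± 6.91 CPM in non-carriers, and Nos1, which encodes neuronal nitric oxide synthase, had 46.1 ± 5.47 CPM in carriers and 45.5 ± 7.26 CPM in non-carriers. Npy and Nos1 did not pass and were picked with their values in view. None of 9 tested pan-GABAergic genes (median 0.013) and none of 7 genes of Pvalb interneurons (median 0.011) passed. Of 11 genes of Vip, Lamp5 and Cck interneurons, Lamp5 alone passed, at -0.17 ± 0.037, with 275 ± 21 CPM in carriers and 311 ± 34.3 CPM in non-carriers. Among 7 genes of glutamatergic neurons, Camk2a, the CaMKII alpha subunit gene, alone passed, at -0.13 ± 0.019. The hypothalamus also makes somatostatin, and 7 hypothalamic peptide genes summed to 0.251 to 1.15 CPM in carriers and 0.372 to 1.11 CPM in non-carriers. Among other lists, Mal of 7 oligodendrocyte genes was lower in carriers (-0.22 ± 0.061). The growth hormone gene Gh, 1 of 3 pituitary genes tested, was lower (-2.80 ± 0.69), with 0.0978 ± 0.186 CPM in carriers and 0.755 ± 1.58 CPM in non-carriers. Libraries WT M2 and Msh3+/- M1, which stood apart by pituitary transcripts, are both non-carriers. The summed level of the 7 pituitary genes had a median of 0.783 CPM in carriers and 0.912 CPM in non-carriers. The part of those libraries in the Gh difference was not tested.

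None of the 6 genes passed the threshold with Msh3 genotype, which had not been used to choose them. The libraries labelled Msh3-/-, with and without Q140, were compared with those without an Msh3 label (16 each), where 0.215% of all genes passed. Cort moved most: it had 1.06 to 3.97 CPM in Msh3-/- libraries (median 2.21), against 1.65 to 4.09 CPM in Msh3+/+ libraries (median 2.56). The ranges overlapped, and the log2 difference of -0.33 ± 0.14 had an edgeR adjusted p of 0.25 (95% interval -34.3 to -3.42%). In Msh3-/- against WT alone, 0.113% of all genes passed, and Cort had a log2 difference of -0.52 ± 0.20 with an edgeR adjusted p of 0.37. In that pair 2 of 8 Msh3-/- libraries were above the WT median. In Q140 Msh3-/- against Q140, where 0.102% passed, it was -0.13 ± 0.19 (edgeR adjusted p 0.90). None of the 6 genes passed in Msh3+/- against WT or in Q140 Msh3+/- against Q140, where 0.0307% of all genes did in either pair. Q140 against WT and Msh3-/- against WT share the 8 WT libraries, so their values are not independent.

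Sstr3 had 26.8 to 34.4 CPM in Msh3-/- libraries (median 30.7), against 24.6 to 31.99 CPM in Msh3+/+ libraries (median 28.6). Its log2 difference of 0.071 ± 0.036 had an edgeR adjusted p of 0.34. The averaged Msh3-/- differences were -0.046 ± 0.034 for Sst (adjusted p 0.54), -0.052 ± 0.049 for Sstr1 (0.64), -0.061 ± 0.081 for Sstr2 (0.76) and -0.051 ± 0.057 for Sstr4 (0.71). For Msh3+/- against Msh3+/+, where 0.0512% of all genes passed, the 6 log2 differences lay between -0.11 (Cort) and 0.034 (Sstr3), and the smallest adjusted p was 0.75. None of the genes for ligand maturation, Gi/o signalling or the CREB pathway passed with either Msh3 genotype. Crhbp, which encodes a binding protein for corticotropin-releasing hormone and marks a subset of Sst interneurons, was the 1 of the 20 Sst interneuron genes that did. It was higher by 0.29 ± 0.053 in Msh3-/- libraries (edgeR adjusted p 0.00159). Crhbp lies on chromosome 13 (95431371 to 95444924), 3.08 Mb from Msh3, so Msh3 genotype and neighbouring sequence inherited with it cannot be told apart.

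Whether the Q140 difference of a gene varied with Msh3 genotype was tested by interaction. None of 19547 genes passed for either Msh3 genotype in edgeR or in DESeq2, and 626 (Msh3-/-) and 646 (Msh3+/-) genes had an unadjusted p under 0.05 in edgeR. For Sstr1, the Q140 difference on Msh3-/- minus that on Msh3+/+ was -0.080 ± 0.098 on the log2 scale (95% interval -0.28 to 0.12), so a loss of the whole difference of 0.22 and no loss at all are both inside the interval. For Sstr4 it was -0.14 ± 0.11 (-0.37 to 0.088) and for Cort 0.39 ± 0.28 (-0.17 to 0.94). Leaving out 1 library moved the interaction both ways. For Sstr1 it ran from -0.12 (without Msh3-/- M3) to -0.046 (without Msh3-/- F4). For Sstr4 it ran from -0.21 (without Q140 Msh3-/- M1) to -0.077 (without Q140 Msh3-/- M4). For Cort it ran from 0.25 (without WT F4) to 0.46 (without Msh3-/- M3). By the intervals above, the lower Sstr1 and Sstr4 differences on Msh3-/- are not shown to differ from those on Msh3+/+. On Msh3+/- the interaction was 0.026 ± 0.098 for Sstr1 and between -0.11 (Cort) and 0.14 (Sstr2) for all 6 genes.

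**Figure D5:**
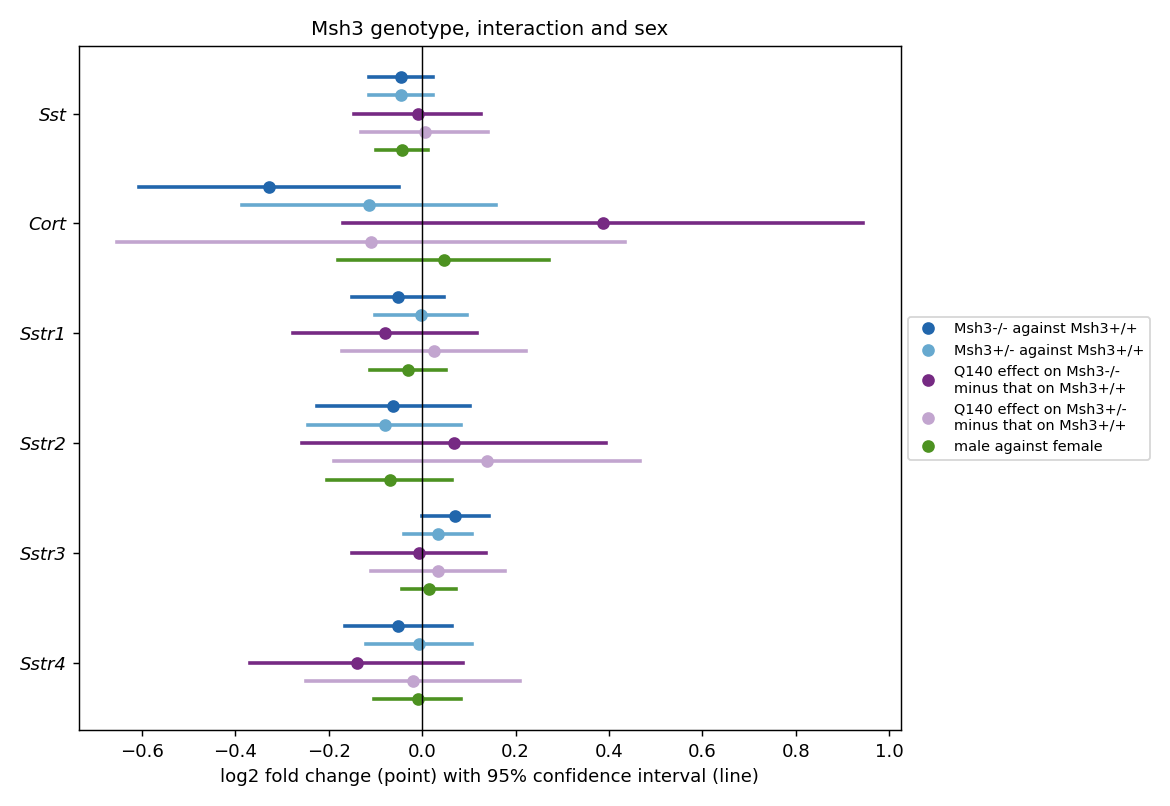
Log2 fold changes with 95% confidence intervals for Msh3-/- and Msh3+/- against Msh3+/+, for both interactions, and for males against females. All but 1 of the 30 intervals include 0. The exception, Cort in Msh3-/- against Msh3+/+ (-0.33), did not pass after adjustment.

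None of the 6 genes passed in males against females, where 4.28% of all genes did. Sst averaged 111 ± 8.91 CPM in males and 115 ± 6.35 CPM in females (n = 24 each), a log2 difference of -0.042 ± 0.028 (edgeR adjusted p 0.46). The other 5 differences lay between -0.069 (Sstr2) and 0.046 (Cort). Of the pathway lists, 2 of 10 genes for ligand maturation, 2 of 27 for Gi/o signalling and 0 of 11 of the CREB pathway passed, and 1 of 20 Sst interneuron genes did. Nothing is read from these counts beside the 4.28% of all genes. The granule protein gene Chga was lower in males (-0.20 ± 0.024) and Scg3, another granule protein gene, higher (0.066 ± 0.020). The adenylyl cyclase genes Adcy1 (0.078 ± 0.016) and Adcy9 (0.073 ± 0.022) were higher in males. The calretinin gene Calb2, expressed in some Sst interneurons, was higher in males (0.17 ± 0.050). These 5 genes were picked with their values in view.

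Among mice of 1 genotype and sex, the 6 genes varied to different degrees. The SD of the log2 level beyond genotype and sex was 0.10 for Sst, 0.10 for Sstr3, 0.15 for Sstr1, 0.17 for Sstr4, 0.23 for Sstr2 and 0.41 for Cort. Counting error alone would give a coefficient of variation of 9.06% for Cort, at a mean of 122 counts, and of 1.34% for Sst at 5580 counts. The spread of each of the 6 genes was larger than its counting error, which was lowest for Sst and highest for Cort.

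The 6 genes did not vary together detectably over the 48 libraries. Of 15 pairs, the ligands Sst and Cort had the highest correlation once genotype and sex were removed, with Pearson r = 0.37 (permutation p = 0.0104, adjusted p = 0.16 over the 15 pairs) and Spearman rho = 0.37 (permutation p = 0.00932, adjusted p = 0.14). Without the 2 libraries farthest from the Sst median, r was 0.39. Within the 6 plate columns of 8 libraries, r was 0.71, 0.71, 0.75, 0.41, -0.23 and 0.49, so that column 5 went the other way. Sst with Sstr2 had r = 0.29 (adjusted permutation p = 0.25) and Sstr1 with Sstr3 r = 0.28 (adjusted permutation p = 0.25). With genotype and sex left in, Sstr1 with Sstr4 was highest (r = 0.41, adjusted permutation p = 0.0587), followed by Sst with Sstr2 (0.35) and Sst with Cort (0.34). No pair passed after adjustment in either form. All genes of a library share its depth and its dissection.

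The genes most like each of the 6, by r of the same levels over 48 libraries among 15112 genes with a mean of at least 1 CPM, were picked as the 5 highest, and no p is attached. For Sst they were Mtss1l (0.66), the Ras-family GTPase gene Mras (0.65), the moesin gene Msn (0.64), Ube2ql1 and Dmtn. For Cort they were Bex2 (0.70), Nudt3 (0.69), Atf4, the transcription factor of the integrated stress response (0.68), Snrpd3 and Slc1a4. For Sstr1 they were Tecpr2 (0.65), Zc3h4 (0.62), Fbxo21, 3010026O09Rik and the activin receptor gene Acvr1b. For Sstr2 they were the stress-response gene Gadd45a (0.70), Pdlim1, Mmp17, Erp29 and Mtmr4. For Sstr3 they were Plekho1 (0.64), Emx1, a homeobox gene of the cortical excitatory lineage (0.63), Habp4, Dact2 and Tmem86a. For Sstr4 the likeness was lower, with Rnf125 at 0.53 and Gm28424, Dpm3, Ggact and Gm12216 below it. The 17 Sst interneuron genes that entered this comparison had a median r of 0.089 with Sst, against 0.0049 for all genes, and ranged from -0.33 to 0.59. They were not the list most like Sst. Medians of the other lists ran from -0.13 (Vip, Lamp5 and Cck interneuron genes) to 0.32 (astrocyte genes), with 0.31 for microglia and 0.25 for glutamatergic neuron genes.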

How the data were processed

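The values are whole-number counts per Ensembl gene, deposited by the authors without normalization, and FPKM values, also deposited by the authors. Dividing one by the other returned a constant length for each of 18400 genes (range at most 0.0405 bp). Libraries were made with a stranded TruSeq kit, per the labels' protocols. Per the submitters' processing notes, the tools included HTSeq 0.12.3, STAR 2.7.5c and SAMtools 1.10, and the build was GRCm38 (mm10). The annotation release and the strand setting are not given in the sources used here. Coordinates and transcripts were taken from GENCODE M21 (GRCm38) and promoter windows from RefSeq.

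Low genes were removed by filterByExpr (at least 10 counts, total of 15), and 1 edgeR 4.0.16 quasi-likelihood model (R 4.3.3, TMM, 6 genotypes plus sex, robust) was fitted to all 48 libraries. Of 13 contrasts, each was tested two-sided with Benjamini-Hochberg adjustment over 19547 genes, and a gene passed at an adjusted p under 0.05. Averaged contrasts weigh the 3 Msh3 genotypes, or the 2 Q140 states, equally. Log2 fold changes are given with their SE. CPM uses the TMM-scaled total. For correlations, log2 CPM (prior count 1) was taken after removal of genotype and sex, with 1e+05 permutations. P-values measure the spread between mice that the labels list as separate samples.

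The 6 genes and the lists (190 genes in 20 lists, of which 174 were tested) were chosen with earlier results of these data known. Named beside the 6 genes are Msh3 and Htt, up to 3 genes of each list that passed with Q140 or with Msh3-/-, and the 5 genes most like each of the 6. Tissue markers named as a check of the labels, and genes said to be picked with their values in view, lie outside this rule. Of the list genes that passed with Q140, 1 is not reported here. DESeq2 1.42.0, limma 3.58.1 and other alternatives are reported last. The code was tested on simulated data.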

Additional observations from a re-analysis of the deposited data

Results flagged for a closer look

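In each group of 8 libraries, the highest and the lowest value of each of the 6 genes were compared with the rest by Dixon's gap over the range. Of 36 groups, 3 held a library farther from the others than the 95% critical value for 8 values, and chance gives about 1 in 20. Cort had 3.97 CPM in Q140 Msh3-/- M2, while the other 7 libraries of that genotype lay between 1.79 and 2.46 CPM (gap over range 0.693). Sstr1 had 16.2 CPM in Q140 Msh3-/- F3, while the others lay between 12.8 and 14 CPM (0.647). Sstr2 had 21.7 CPM in Q140 Msh3+/- F3, while the others lay between 12.7 and 16.8 CPM (0.544). These are 3 different libraries.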

How the results depend on the processing

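The Sstr1 difference for Q140 carriers against non-carriers, a description because the same libraries were known when the gene was chosen, was 0.20 to 0.23 on the log2 scale in 10 alternatives and 0.19 to 0.22 with each of the 48 libraries left out in turn. The alternatives were DESeq2, limma voom with a random block, other size factors, both filter choices, no sex term, plate column, the replicate block and 2 sets of libraries high in pituitary or choroid transcripts left out, the second set chosen after seeing the data. The 5 other genes did not pass for Q140 in any of them, and none of the 6 passed for Msh3 genotype, interaction or sex. The averaged Q140 difference of Cort ranged from -0.031 to 0.029, and from -0.070 to 0.019 with 1 library left out. Over all genes, the number that passed for Q140 was 288, and 102 to 465 in the alternatives (DESeq2 465), and for Msh3-/- 42, and 31 to 159 (DESeq2 159). With 1 library left out these were 201 to 475 and 28 to 109. Numbers for single pairs moved likewise: 20 became 11 to 34 for Q140 against WT, 10 became 7 to 22 for Q140 Msh3+/- against Msh3+/-, 4 became 2 to 5 for Q140 Msh3-/- against Msh3-/-, 22 became 13 to 23 for Msh3-/- against WT, 6 became 2 to 10 for Msh3+/- against WT, and 20 became 12 to 29 for Q140 Msh3-/- against Q140. Replicate numbers gave no clear pairing of the libraries. Deviations of same-numbered libraries had a median r of -0.0079 (range -0.29 to 0.59), against -0.030 for other numbers of the same sex. Of 120 same-numbered pairs 19 exceeded 0.1. Their own number was the best match for 18 of 48 libraries, and how many chance would give was not computed. With the replicate block the Sstr1 difference was 0.21 ± 0.040 and 1 of the 6 genes passed, as without it. Library names in the labels share 27 prefixes, 12 of them across genotypes, and what a prefix marks is not given in the sources used here. With the prefix as the random block in limma voom (correlation within prefix 0.1), the Sstr1 difference was 0.21 ± 0.040. With the replicate block, the sex comparison has no value because each number belongs to 1 sex. The correlation of Sstr1 with Sstr2 was -0.087, but 0.080 (adjusted permutation p 0.80) when genotype and sex were not removed, and the cause was not tested. Depth limits Cort most, with 57 to 277 counts per library.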
